A study of Mus musculus with 6 samples.

Results

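The genes described here carry the ATF4 stress response and the supply of amino acids to regulatory T cells (Tregs), a lineage of CD4 T cells that depends on Foxp3 and holds immune responses in check. They were chosen by name, with earlier results of these data known. They are 38 genes of the integrated stress response, serine and one-carbon synthesis, amino acid carriers and tRNA synthetases. All 38 were found among the 49585 genes of the deposited table, and 37 were among the 13766 that were tested, having reached 1 FPKM in 3 libraries or more. FPKM is the number of sequenced fragments per kilobase of gene and scaled to the fragments of the library. The gene left out of the test was Vldlr, a lipoprotein receptor, at no more than 0.0461 FPKM in any library, and no fold change is given for it.

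Poly(A) RNA was sequenced from 6 libraries of Tregs, 3 labelled WT and 3 labelled Bach2-cKO. BACH2 is a transcriptional repressor of lymphocytes, and the series concerns its part in Treg homeostasis. All 6 came from spleens of C57BL/6 mice aged 7 weeks, were sorted as B220-, CD4+, CD25+ and YFP+ cells, and were stimulated on plate-bound antibodies to CD3 and CD28 for 24 h. The sources used here do not say which cells of the Bach2-cKO mice lack BACH2, what drives the YFP, or whether replicates were separate mice. The p-values therefore measure the spread between these libraries, which may be technical.

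The integrated stress response begins when kinases that sense amino acid shortage, misfolded protein, double-stranded RNA or lack of heme phosphorylate the translation factor eIF2. Most translation then slows, while the message for the transcription factor ATF4 is translated more. ATF4 pairs with C/EBP factors and switches on genes that make, import and charge amino acids, together with feedback inhibitors of the response. T cells take up amino acids on activation, and the growth kinase complex mTORC1 can raise ATF4 as well. ATF4 is set mainly by translation, so the RNA measured here gives the level of its message and not of the protein.

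Of the 37 tested genes, 22 rose in the Bach2-cKO libraries, 2 fell and 13 passed in neither direction, by limma on log2(FPKM + 1) with an adjusted p under 0.05. Among all 13766 tested genes, 7.02% were called higher and 8.31% lower by the same rule. At an unadjusted p under 0.05 by limma, 1903 of the 13766 were higher and 2338 lower, against 28 and 2 of the 37. The share of the 37 genes called higher was 59.5%. Their median log2 fold change was 0.41, against -0.017 for all tested genes, and 34 of the 37 values were above 0. In 25 of the genes every Bach2-cKO library was above every WT library, and in 2 every one was below. Over all tested genes these shares were 15.5% and 20.1%. The changes were mostly modest: Chac1, Atf5, Asns and Cebpb rose by more than 1 on the log2 scale, and the other 18 by less.

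By role, 3 of 5 transcription factors rose, 3 of 4 tested stress effectors, 4 of 6 enzymes of amino acid synthesis, 2 of 4 one-carbon enzymes, 2 of 7 carriers and 8 of 11 cytosolic tRNA synthetases. The 2 genes that fell were Slc7a11, a carrier, and Shmt1, a one-carbon enzyme. With a B cell score as a covariate, the mean over the B cell markers of log2(FPKM + 1) relative to the mean of each gene over the 6 libraries, 0 of the 37 genes passed by limma, the lowest adjusted p was 0.0545, and 13 were higher and 0 lower at an unadjusted p under 0.05. In that fit the log2 fold changes were 0.71 of their size in the median and the standard errors 1.64 times as large. Leaving out 1 library left 13, 16 and 14 genes higher without WT replicate 1, 2 and 3, and 21, 12 and 20 without Bach2-cKO replicate 1, 2 and 3. In all 6 of these fits, and with no filter on low values, 12 genes were called higher: Atf5, Cebpb, Chac1, Asns, Phgdh, Shmt2, Mthfd2, Slc7a5, Aars, Gars, Nars and Eprs.

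**Figure D1:**
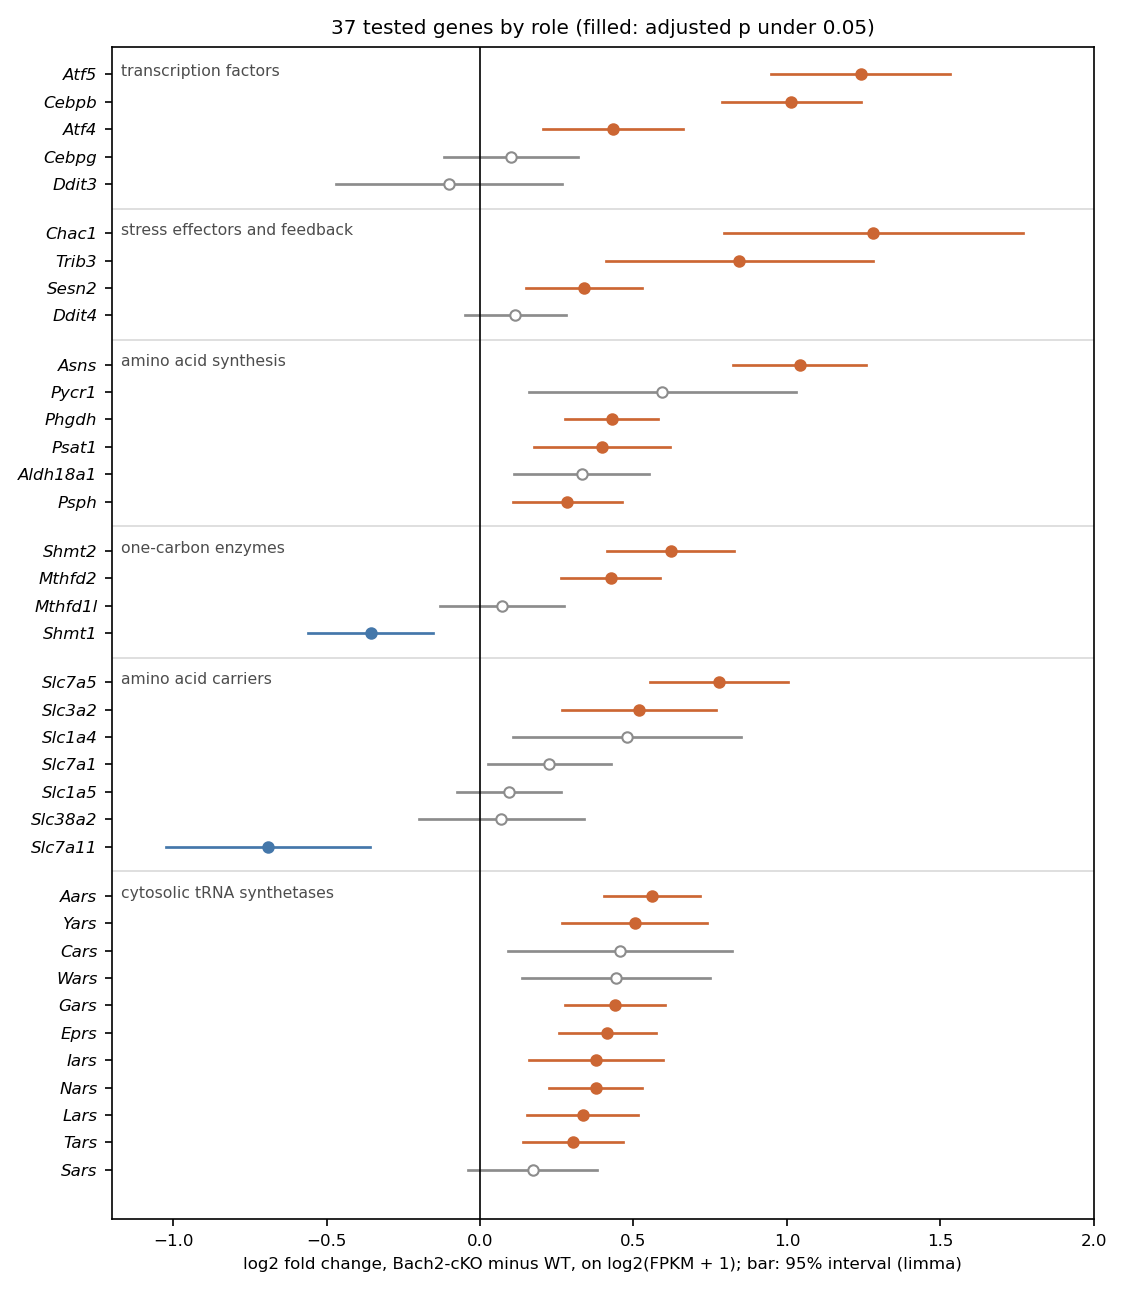
Log2 fold change (Bach2-cKO minus WT, on log2(FPKM + 1)) of the 37 tested genes, arranged by role, with 95% intervals from limma. Filled points had an adjusted p under 0.05: 22 lie to the right of 0 and 2, Shmt1 and Slc7a11, to the left.

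Bach2 itself did not check the labels. Its message was at 112, 111 and 99.4 FPKM in WT replicates 1 to 3 and at 88.9, 104.5 and 121 FPKM in Bach2-cKO replicates 1 to 3. The groups overlapped, with a log2 fold change of -0.048 (SE 0.11, adjusted p = 0.812 by limma). The deleted part of the gene is not given, so every direction reported here rests on the labels. Recovered read totals were 27697735 to 43884431 per library, and the tested members had 169 to 25344 reads in a library.

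Promoters were searched because ATF4 with a C/EBP partner binds a composite element, the CARE. Its core was searched as TGATGNAA on both strands, in windows of 250 bases before to 50 after the RefSeq start (GRCm38.p6). A match was present in 1304 of 32851 promoters (3.97%) and in 12 of the 36 promoters matched to the genes described here (33.3%). These 36 promoters belong to 32 of the 38 genes. Stretches of 120 bases are shown from genes that rose (Asns, Chac1, Gars, Tars), that did not pass (Pycr1) or that fell (Slc7a11). Letters run 5′ to 3′ on the strand of the gene, and capitals mark the core or its reverse complement.
Asns: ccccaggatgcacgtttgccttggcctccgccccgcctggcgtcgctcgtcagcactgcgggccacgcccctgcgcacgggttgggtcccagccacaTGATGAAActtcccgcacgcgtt
Chac1: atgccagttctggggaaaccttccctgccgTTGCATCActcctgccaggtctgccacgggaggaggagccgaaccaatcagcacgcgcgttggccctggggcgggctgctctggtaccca
Gars: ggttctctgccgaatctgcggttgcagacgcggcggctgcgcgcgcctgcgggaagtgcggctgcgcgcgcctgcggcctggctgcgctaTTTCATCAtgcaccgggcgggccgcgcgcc
Tars: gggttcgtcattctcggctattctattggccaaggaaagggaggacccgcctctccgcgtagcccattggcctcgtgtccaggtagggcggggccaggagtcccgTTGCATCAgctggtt
Pycr1: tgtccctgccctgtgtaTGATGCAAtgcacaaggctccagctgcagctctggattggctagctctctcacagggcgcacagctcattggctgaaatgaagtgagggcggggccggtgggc
Slc7a11: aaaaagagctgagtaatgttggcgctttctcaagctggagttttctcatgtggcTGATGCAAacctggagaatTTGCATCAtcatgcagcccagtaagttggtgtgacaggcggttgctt

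These stretches lie on GRCm38.p6 at chr6:7693210-7693329 on the minus strand (Asns), chr2:119351019-119351138 on the plus strand (Chac1) and chr6:55037881-55038000 on the plus strand (Gars). The others are chr15:11399659-11399778 (Tars), chr11:120643749-120643868 (Pycr1) and chr3:50443614-50443733 (Slc7a11), all on the minus strand. The first base of the match was at -23 from the start in Asns, -193 in Chac1, -30 in Gars, -15 in Tars and -103 in Pycr1. Slc7a11 held 2 matches, at -66 and -47, in opposite orientations. Matches were also found in Aars, Trib3, Yars, Iars, Slc1a4 and Vldlr.

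Of the 11 tested genes with a match, 8 rose and 1, Slc7a11, fell. Of the 20 tested genes whose promoters held none, 11 rose and 1, Shmt1, fell. Among tested genes outside the 38, 27 of 247 with a match were called higher (10.9%), against 582 of 8825 without one (6.59%). Called lower were 26 of these 247 and 778 of these 8825. A core of the AP-1 type, TGANTCA, which BACH factors bind within longer elements, was in 7.81% of all promoters and in 2 of the 36, those of Slc7a1 and Ddit3, neither of which passed the test. Among tested genes outside the 38, 80 of 543 with this core were called higher (14.7%), against 529 of 8529 without it (6.2%). Called lower were 49 of these 543 and 755 of these 8529. A match is a description of the letters and not a measured binding site.

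Among the transcription factors, Atf4, Atf5 and Cebpb rose. Atf4 (chr15:80255184-80257540) was at 122, 141 and 117 FPKM in WT replicates 1 to 3 and at 153, 175 and 187 FPKM in Bach2-cKO replicates 1 to 3. The groups did not overlap, and the means were 127 ± 12.5 FPKM in WT and 171 ± 17.5 FPKM in Bach2-cKO libraries, with errors as SD over n = 3. The log2 fold change of Atf4 was 0.43 with an SE of 0.098 and an adjusted p of 0.0254 by limma. The call for Atf4 was lost, at an adjusted p of up to 0.0921, on leaving out Bach2-cKO replicate 2 or either of WT replicates 1 and 3.

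Atf5 (chr7:44812256-44816658), a relative of ATF4 that is itself controlled through translation, rose as well. Its level was 13.1, 13.2 and 15.2 FPKM in WT and 29.5, 32.4 and 40.9 FPKM in Bach2-cKO libraries. That is a log2 fold change of 1.24 (SE 0.13, adjusted p = 0.00116 by limma). Cebpb (chr2:167688915-167690418), which encodes a C/EBP partner of ATF4, was at 20.6, 23.5 and 23.4 FPKM in WT and 43.6, 43.2 and 52.9 FPKM in Bach2-cKO libraries. Its log2 fold change was 1.01 (SE 0.098, adjusted p = 0.000966 by limma). For both genes the lowest Bach2-cKO library was well above the highest WT library.

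Cebpg and Ddit3 did not pass. Cebpg encodes another dimer partner of ATF4, and its means were 42.1 ± 3.45 and 45.4 ± 4.64 FPKM (WT and Bach2-cKO, SD, n = 3; log2 fold change 0.10, 95% interval -0.12 to 0.32). Ddit3 encodes CHOP, a factor tied to cell death under lasting stress. It was at 41.8, 45.0 and 41.3 FPKM in WT and at 30.2, 42.4 and 49.0 FPKM in Bach2-cKO libraries. The Bach2-cKO libraries lay on both sides of the WT range, and the 95% interval of the log2 fold change was -0.47 to 0.27 (adjusted p = 0.714 by limma). Whether counting used strand is not given, and Cebpb, Atf5 and Ddit3 share 312, 82 and 68 exon bases with Tmem189, Nup62 and Mars on the opposite strand.

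**Figure D2:**
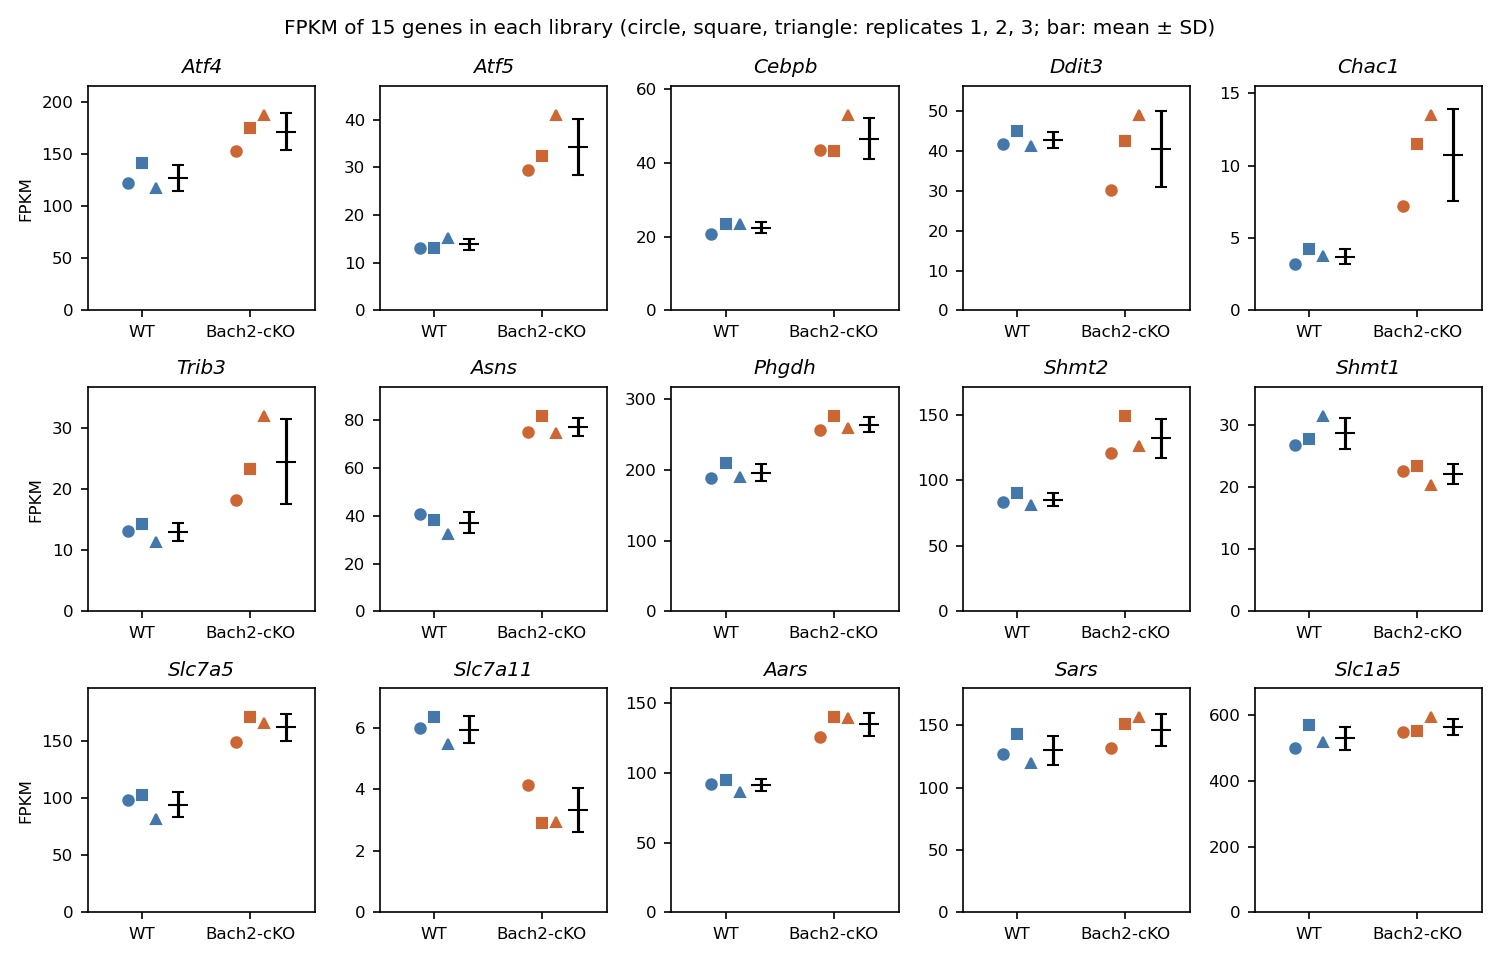
FPKM of 15 of the genes in each of the 6 libraries, with replicates 1, 2 and 3 as circle, square and triangle and the mean ± SD beside each group. Atf5, Cebpb, Chac1 and Asns have no overlap between groups, Shmt1 and Slc7a11 are lower in every Bach2-cKO library, and Ddit3, Sars and Slc1a5 overlap.

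Of the stress effectors, Chac1, Trib3 and Sesn2 rose and Ddit4 did not pass. Chac1, which encodes an enzyme that degrades glutathione, had the largest log2 fold change of the 37 genes. It was at 3.19, 4.23 and 3.73 FPKM in WT and at 7.23, 11.5 and 13.5 FPKM in Bach2-cKO libraries (log2 fold change 1.28, SE 0.21, adjusted p = 0.0073 by limma). The Bach2-cKO values were spread widely, with an SD of 3.19 FPKM around a mean of 10.7. Trib3 encodes a pseudokinase that restrains ATF4 signalling. Its level was 13.2, 14.2 and 11.3 FPKM in WT and 18.3, 23.3 and 31.8 FPKM in Bach2-cKO libraries (log2 fold change 0.85, SE 0.19, adjusted p = 0.0228 by limma). Both genes were lowest in Bach2-cKO replicate 1 and highest in replicate 3.

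Sesn2 encodes a leucine sensor that inhibits mTORC1. It was at 11.7, 11.9 and 11.3 FPKM in WT and at 13.9, 15.1 and 15.9 FPKM in Bach2-cKO libraries (log2 fold change 0.34, SE 0.082, adjusted p = 0.0309 by limma). Ddit4, the message of the mTORC1 inhibitor REDD1, had means of 139.5 ± 7.33 and 151 ± 9.95 FPKM, and its groups overlapped (log2 fold change 0.12, adjusted p = 0.317 by limma). Trib3 lost its call when Bach2-cKO replicate 2 or either of WT replicates 1 and 3 was left out (adjusted p up to 0.0732). Sesn2 kept its call only without Bach2-cKO replicate 1, with an adjusted p of up to 0.107 in the other 5 fits.

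In amino acid synthesis, all 6 enzymes had positive log2 fold changes and Asns, Phgdh, Psat1 and Psph rose. Asns (chr6:7675169-7693254) encodes asparagine synthetase, a classical ATF4 target. It was at 40.8, 38.3 and 32.3 FPKM in WT and at 75.0, 81.7 and 74.9 FPKM in Bach2-cKO libraries. The level in the Bach2-cKO libraries was 2.08 times that in WT (log2 fold change 1.04, SE 0.093, adjusted p = 0.000736 by limma). This was the smallest adjusted p among the 37 genes.

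Phgdh, Psat1 and Psph encode the consecutive enzymes of serine synthesis from a glycolytic intermediate. Phgdh, the first of them, was at 189, 209.8 and 189.6 FPKM in WT and at 257, 276 and 259.9 FPKM in Bach2-cKO libraries (log2 fold change 0.43, SE 0.065, adjusted p = 0.00536 by limma). Psat1 was at 104, 102 and 122 FPKM in WT and at 142, 158 and 132 FPKM in Bach2-cKO libraries, a log2 fold change of 0.40 (adjusted p = 0.0302 by limma). Psph was at 34.2, 35.5 and 33.8 FPKM in WT and at 46.1, 42.1 and 38.7 FPKM in Bach2-cKO libraries, a log2 fold change of 0.28 (adjusted p = 0.0447 by limma). In all 3 serine genes the groups did not overlap. Psph shares 452 exon bases with Cct6a on the opposite strand.

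Aldh18a1 and Pycr1 encode enzymes of proline synthesis. Aldh18a1 had means of 76.4 ± 5.94 and 96.6 ± 10.3 FPKM, with every Bach2-cKO library above every WT library and an adjusted p of 0.0537 by limma. Pycr1 was at 5.83, 7.38 and 5.34 FPKM in WT and 10.7, 11.9 and 7.24 FPKM in Bach2-cKO libraries, so that Bach2-cKO replicate 3 lay within the WT range (log2 fold change 0.59, adjusted p = 0.0726 by limma). Psat1 kept its call without WT replicate 3 or Bach2-cKO replicate 3 and lost it in the other 4 fits (adjusted p up to 0.109). Psph kept its call only without Bach2-cKO replicate 3 (adjusted p up to 0.132), and Aldh18a1 and Pycr1 each passed in 1 of the 6 fits, with an adjusted p of 0.0269 and 0.0135.

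Of the one-carbon enzymes, 2 rose and 1 fell. Shmt2 and Mthfd2, whose products act in mitochondria on the carbon unit that folate takes from serine, rose. Shmt1, the cytosolic counterpart of Shmt2, fell, and the mitochondrial Mthfd1l did not pass. Shmt2 was at 83.7, 90.6 and 81.2 FPKM in WT and at 121, 149 and 126 FPKM in Bach2-cKO libraries (log2 fold change 0.62, SE 0.089, adjusted p = 0.00427 by limma). Mthfd2 was at 109, 114 and 105 FPKM in WT and at 135, 154 and 153 FPKM in Bach2-cKO libraries (log2 fold change 0.43, SE 0.069, adjusted p = 0.00704 by limma). In both genes the groups were apart.

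Shmt1 (chr11:60788104-60811718) was at 26.8, 27.6 and 31.3 FPKM in WT and at 22.5, 23.4 and 20.3 FPKM in Bach2-cKO libraries (log2 fold change -0.36, SE 0.087, adjusted p = 0.0329 by limma). The call for Shmt1 was lost whichever library was left out, with an adjusted p of 0.0582 to 0.0833, although every fit gave a negative value. It shares 184 exon bases with Smcr8 on the opposite strand. As a ratio of FPKM within a library, Shmt2 over Shmt1 was 3.12, 3.28 and 2.59 in WT and 5.36, 6.36 and 6.21 in Bach2-cKO libraries. Mthfd1l had means of 31.0 ± 2.3 and 32.7 ± 2.83 FPKM and overlapped between groups (adjusted p = 0.619 by limma).

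Of the 7 carriers, both chains of the large neutral amino acid exchanger rose. Slc7a5 encodes LAT1, the transporting chain for leucine and similar amino acids. It was at 98.2, 102 and 81.8 FPKM in WT and at 149, 171 and 166 FPKM in Bach2-cKO libraries (log2 fold change 0.78, SE 0.097, adjusted p = 0.0025 by limma). Slc3a2 encodes CD98, the heavy chain that LAT1 shares with other exchangers. It was at 205, 207 and 178 FPKM in WT and at 252, 270.5 and 327 FPKM in Bach2-cKO libraries (log2 fold change 0.52, SE 0.11, adjusted p = 0.0183 by limma). The ratio of Slc7a5 to Slc3a2 FPKM was 0.480, 0.494 and 0.460 in WT and 0.592, 0.632 and 0.507 in Bach2-cKO libraries.

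Slc7a11 (chr3:49892526-50443614), the cystine importer xCT that also pairs with CD98, fell. It was at 6.01, 6.34 and 5.47 FPKM in WT and at 4.15, 2.91 and 2.94 FPKM in Bach2-cKO libraries (log2 fold change -0.69, SE 0.14, adjusted p = 0.0179 by limma). Every Bach2-cKO library was below every WT library, in a gene whose upstream window shown above held 2 CARE cores. Its call was lost, at an adjusted p of up to 0.0697, on omitting Bach2-cKO replicate 2 or either of WT replicates 1 and 2. Slc3a2 lost its call with Bach2-cKO replicate 2 or either of WT replicates 1 and 3 left out (adjusted p up to 0.0535).

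The remaining carriers did not pass. Slc1a5, the glutamine and neutral amino acid carrier ASCT2, was the most abundant of the 37 genes in FPKM. It was at 501, 569.7 and 517 FPKM in WT and at 548, 553 and 594 FPKM in Bach2-cKO libraries (log2 fold change 0.10, 95% interval -0.07 to 0.26). Slc38a2, another importer of small neutral amino acids, had means of 67.1 ± 9.24 and 70.2 ± 6.95 FPKM (95% interval of the log2 fold change -0.20 to 0.34). Slc7a1, the cationic amino acid carrier CAT1, had means of 56.0 ± 3.22 and 65.8 ± 6.6 FPKM (adjusted p = 0.122 by limma). In these 3 genes the groups overlapped. Slc1a4, which carries serine and alanine, was higher in every Bach2-cKO library, at 3.74 ± 0.737 and 5.59 ± 0.823 FPKM, with an adjusted p of 0.085 by limma.

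The 11 cytosolic tRNA synthetases, which load amino acids onto their tRNAs, all had positive log2 fold changes, between 0.17 and 0.56. Aars, the alanine enzyme, was at 92.2, 94.5 and 86.3 FPKM in WT and at 125, 139.8 and 139 FPKM in Bach2-cKO libraries (log2 fold change 0.56, SE 0.067, adjusted p = 0.0022 by limma). Gars, the glycine enzyme, was at 99.1, 109 and 93.7 FPKM in WT and at 131, 142 and 137 FPKM in Bach2-cKO libraries (log2 fold change 0.44, adjusted p = 0.00652 by limma). Eprs, which charges glutamate and proline tRNAs, was at 55.6, 57.7 and 55.1 FPKM in WT and at 71.2, 81.6 and 73.1 FPKM in Bach2-cKO libraries (log2 fold change 0.41, adjusted p = 0.00719 by limma). In each of these 3 genes the WT libraries were close together and well below the Bach2-cKO libraries. Aars shares 1326 exon bases with Exosc6 on the same strand, a gene listed at 0.

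Nars, the asparagine enzyme, had means of 71.8 ± 3.24 and 93.5 ± 5.0 FPKM (log2 fold change 0.38, adjusted p = 0.00895 by limma). Yars, the tyrosine enzyme, had means of 56.6 ± 5.06 and 80.8 ± 9.64 FPKM (log2 fold change 0.50, adjusted p = 0.0163 by limma). Iars, Lars and Tars, for isoleucine, leucine and threonine, rose with log2 fold changes of 0.38, 0.33 and 0.30 and adjusted p-values of 0.0341, 0.0277 and 0.0278. All 5 had no overlap between groups. Yars lost its call without WT replicate 1 or Bach2-cKO replicate 2 (adjusted p up to 0.0614). Iars and Tars kept theirs only without Bach2-cKO replicate 1, and Lars only without Bach2-cKO replicate 1 or 3, with an adjusted p of up to 0.114, 0.106 and 0.0995.

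Wars, Cars and Sars did not pass. Wars, the tryptophan enzyme, which interferon also induces, was at 182, 135 and 128 FPKM in WT and at 215, 200.3 and 185 FPKM in Bach2-cKO libraries (adjusted p = 0.0613 by limma). Without WT replicate 1, the highest WT library, the adjusted p for Wars was 0.0125. Cars, the cysteine enzyme, had means of 82.6 ± 14.8 and 113 ± 18.5 FPKM, and Sars, the serine enzyme, 129.8 ± 11.8 and 146 ± 12.7 FPKM. Their groups overlapped, with adjusted p-values of 0.0926 and 0.244 by limma.

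The 3 Bach2-cKO libraries were not alike across roles. Over the 37 genes, the highest Bach2-cKO value was in replicate 3 for 19 genes, in replicate 2 for 14 and in replicate 1 for 4, and the lowest was in replicate 1 for 27. All 5 transcription factors and all 4 tested stress effectors were highest in replicate 3. Of the 6 enzymes of amino acid synthesis, 4 were lowest there. The median log2(FPKM + 1) of the 37 genes, relative to the mean of each gene over the 6 libraries, was -0.20, -0.14 and -0.27 in WT replicates 1 to 3 and 0.093, 0.25 and 0.24 in Bach2-cKO replicates 1 to 3.

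Other cell markers and programmes moved with the groups. The labelled T cell and Treg genes were present in every library, with Cd3e at 151 to 194 FPKM, Cd4 at 265 to 373 FPKM and Foxp3 at 104 to 154 FPKM. Their 10 genes summed to 2729.8 to 3184 FPKM in WT and to 2744 to 3192.5 FPKM in Bach2-cKO libraries. The sums are alike but the genes moved apart. Cd3d and Cd3g fell and Il2ra, the IL-2 receptor chain CD25 used in the sort, rose from 256 ± 38.7 to 482 ± 22.1 FPKM. The median log2 fold change of the 10 was -0.21, and before adjustment 5 were lower and 2 higher at a p under 0.05. B cell genes were also present in every library, although the sort took B220- cells. Of 14 B cell markers, 5 rose and 0 fell by limma, with sums of 1411 to 1955 FPKM in WT and 1916 to 2450.3 FPKM in Bach2-cKO libraries. At an unadjusted p under 0.05, 8 were higher and 0 lower.

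Of 8 tested plasma cell markers 4 rose and 0 fell, 6 had positive log2 fold changes, and the median was 0.75. Sums over the list were 1351 to 1667 FPKM in WT and 2310.3 to 2858 FPKM in Bach2-cKO libraries. Most of these sums was Ighm, which B cells also express, with means of 1326 ± 187 and 2241 ± 274 FPKM. Of 3 other genes of the list, Jchain rose, Sdc1 was at 8.66 ± 1.14 and 8.41 ± 2.01 FPKM, and Tnfrsf17 did not exceed 0.336 FPKM. Both CD8 T cell genes rose, as did 1 of 3 tested NK cell genes and 1 of 5 tested myeloid genes. At an unadjusted p under 0.05 by limma, 3 NK cell genes and 1 myeloid gene were higher. The CD8 T cell genes summed to 40.2 to 44.2 FPKM in WT and 53.8 to 99.3 FPKM in Bach2-cKO libraries. Sums were 22.2 to 33.3 and 77.7 to 196 FPKM for the NK cell list, and 40.5 to 46.8 and 71.0 to 114 FPKM for the myeloid list. The median level of the tested myeloid genes was nevertheless lowest in Bach2-cKO replicate 1, at -0.71. The median level of the B cell markers was -0.36, 0.11 and -0.39 in WT and 0.033, 0.34 and 0.21 in Bach2-cKO replicates 1 to 3, on the scale used above for the 37 genes. In bulk RNA, fewer cells of a type and less RNA per cell cannot be told apart. The B cell score used as a covariate, a mean over the same list, also separated the groups. It was -0.35, 0.036 and -0.32 in WT and 0.067, 0.40 and 0.17 in Bach2-cKO replicates 1 to 3. The fit with this score therefore cannot fully tell the score from the group label. The part of these other cells in the rise of the 37 genes was not tested.

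Of 16 ER chaperones, which fold secreted and membrane proteins, 11 rose, with a median log2 fold change of 0.57. Hspa5, which encodes the main chaperone BiP, had means of 350.2 ± 31.9 FPKM in WT and 524 ± 60.1 FPKM in Bach2-cKO libraries, a log2 fold change of 0.58 with an adjusted p of 0.0106 by limma. Of 30 cell cycle genes 0 passed by limma, although all 30 log2 fold changes were positive. By limma-voom 2 passed, and 12 were higher before adjustment at a p under 0.05. The median cell cycle level was -0.37, -0.28 and 0.059 in WT and 0.48, 0.36 and -0.19 in Bach2-cKO replicates 1 to 3. Bach2-cKO replicate 3, which was highest for the transcription factors and stress effectors, had the lowest cell cycle level of its group. With a cell cycle score, a mean built like the B cell score, as a covariate, 20 of the 24 called genes kept their call.

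**Figure D3:**
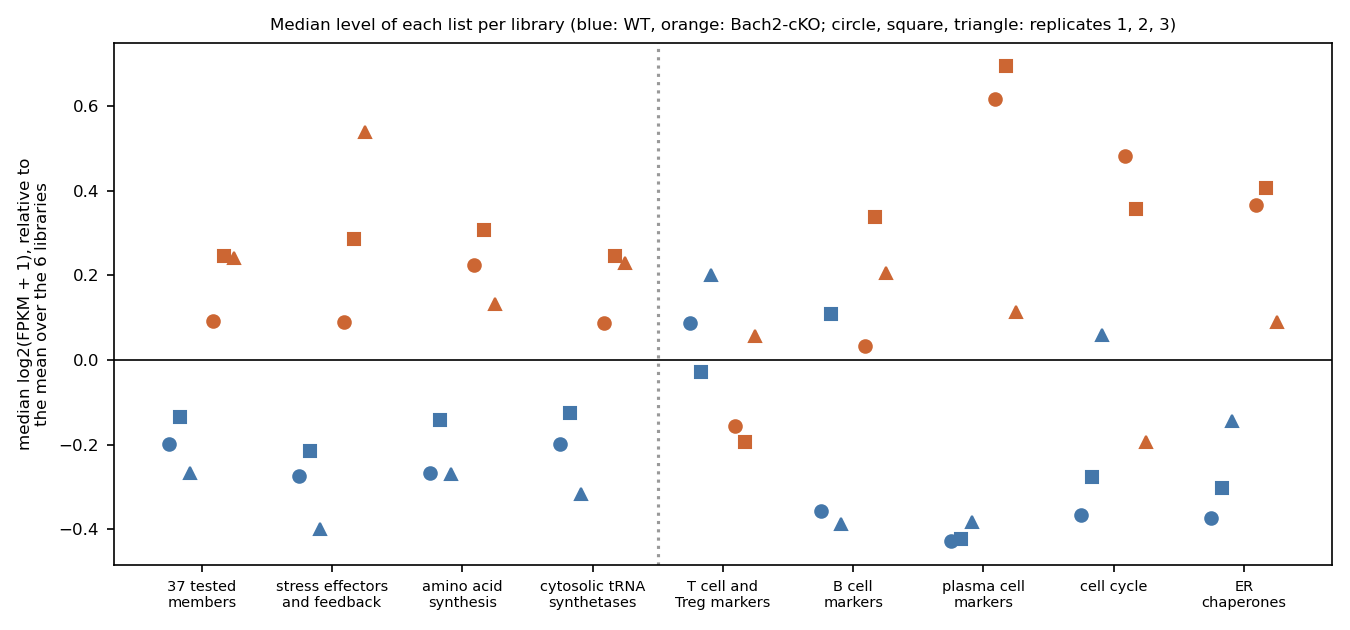
Median log2(FPKM + 1) per library, relative to the mean over the 6 libraries, for the 37 genes and 3 of their roles (left of the dotted line) and for marker lists (right), with WT in blue, Bach2-cKO in orange and replicates 1, 2 and 3 as circle, square and triangle. The 37 genes separate the groups in every library, and so do the plasma cell markers and ER chaperones. The medians of the T cell and Treg, B cell and cell cycle lists overlap between groups, although the B cell score, a mean, does not.

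Genes of the same pathways outside the 38 were read from 7 further lists, also chosen with earlier results of these data known. Of 19 tested further targets and partners of ATF4, 9 rose and 0 fell by limma, with a median log2 fold change of 0.44, and 12 were higher and 1 lower at an unadjusted p under 0.05. Nfil3, a bZIP repressor, had means of 25.8 ± 3.6 FPKM in WT and 67.0 ± 6.29 FPKM in Bach2-cKO libraries, a log2 fold change of 1.35 with an adjusted p of 0.000571 by limma. Atf6, an ER stress sensor, Ero1l, an ER oxidase, and Eif4ebp1, an inhibitor of cap-dependent translation, rose with log2 fold changes of 0.70, 0.54 and 0.51. Atf3, named after its value was seen, was at 3.88 ± 0.648 and 5.58 ± 0.422 FPKM, with an adjusted p of 0.0623 by limma.

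Upstream of ATF4 lie eIF2 and the enzymes that act on it. The 17 genes read here cover eIF2 subunits, its kinases and phosphatase subunits, the exchange factor eIF2B and the regulators Gcn1l1, Impact and Oma1. By limma 3 rose (17.6%) and 1 fell, against 7.02% and 8.31% of all tested genes, and the median log2 fold change was 0.091. By limma-voom 4 were higher and 0 lower. Those that rose by limma were Eif2s2, a subunit of eIF2 (0.27), Eif2ak2, the kinase PKR that senses double-stranded RNA (0.29), and Ppp1r15b, a phosphatase subunit (0.28). Oma1, a mitochondrial protease that relays stress to the response, fell by 0.31 on the log2 scale. The kinases of ER stress and amino acid shortage, Eif2ak3 and Eif2ak4, were named after their values were seen and did not pass, with log2 fold changes of 0.25 and 0.11 and adjusted p-values of 0.102 and 0.52. Of the 4 called genes, Eif2s2 kept its call in 3 of the 6 fits that left out a library and Eif2ak2, Ppp1r15b and Oma1 in 1 each, with an adjusted p of up to 0.131. Bach2-cKO replicate 2 and WT replicate 3 were among the libraries whose omission ended each of these calls, and Oma1 also missed the threshold under median-ratio scaling and limma-voom.

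Further tRNA synthetases were read by compartment. Of 12 other cytosolic synthetases and their complex 0 passed by limma, and the median log2 fold change was 0.11. By limma-voom 1 passed, and before adjustment 4 were higher and 0 lower at a p under 0.05. Rars, the arginine enzyme, had the smallest p of them, at 68.8 ± 4.43 and 84.6 ± 8.11 FPKM (log2 fold change 0.29, adjusted p = 0.0609 by limma). Of 17 mitochondrial synthetases 0 rose and 2 fell by limma, and the same counts came from limma-voom. Before adjustment 0 were higher and 3 lower at a p under 0.05. The share lower was similar to that over all tested genes, 2338 of 13766. Tars2 went from 89.3 ± 6.42 to 63.7 ± 2.19 FPKM and Hars2 from 43.0 ± 0.507 to 34.2 ± 1.66 FPKM (log2 fold changes -0.48 and -0.32, adjusted p = 0.00449 and 0.0128 by limma). Without WT replicate 1 the adjusted p for Hars2 was 0.0565. Whether the lists differ from each other was not tested.

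Among 19 tested further carriers 4 rose (21.1%) and 1 fell, with a median log2 fold change of 0.062. Over all tested genes 7.02% were called higher and 8.31% lower. Slc1a1, a glutamate carrier, went from 0.433 ± 0.148 to 2.28 ± 0.356 FPKM, and Slc7a7, a partner of CD98 that exports cationic amino acids, from 5.16 ± 0.816 to 11.6 ± 2.79 FPKM. Slc16a10, an aromatic amino acid carrier, rose by 0.86 on the log2 scale, and Slc43a1, a carrier of large neutral amino acids, fell by 0.75. The other gene that rose was Slc7a3, named after its value was seen. Of 31 further enzymes of one-carbon, serine, glycine, proline and methionine metabolism 4 rose (12.9%) and 2 fell, not far from the shares over all tested genes. Their median log2 fold change was -0.011, and 14 values were above 0. The 2 that fell, Aldh4a1 and Gls2, were named after their values were seen (log2 fold changes -0.46 and -0.61). Aldh1l2, a mitochondrial folate enzyme, had means of 0.695 ± 0.109 FPKM in WT and 2.14 ± 0.142 FPKM in Bach2-cKO libraries, a log2 fold change of 0.89 with an adjusted p of 0.00685 by limma. Both Slc1a1 and Aldh1l2 were below 1 FPKM in every WT library. They entered the test only through the Bach2-cKO libraries, where they were high. Ahcy of methionine metabolism and Got1, an aspartate transaminase, rose with log2 fold changes of 0.42 and 0.31. Neither passed on omitting WT replicate 1 or either of Bach2-cKO replicates 1 and 2, nor did Ahcy without WT replicate 2, with an adjusted p of up to 0.0758.

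Of 32 genes through which mTORC1 senses amino acids, 0 rose and 3 fell by limma, against 1 and 2 by limma-voom. Before adjustment 1 was higher and 6 were lower at a p under 0.05. Both shares lower were similar to those over all 13766 tested genes, of which 8.31% were called lower and 2338 were lower before adjustment. Sesn1 and Sesn3, relatives of Sesn2, were among those that fell. Sesn1 was at 64.0, 64.7 and 56.2 FPKM in WT and at 28.3, 29.0 and 42.6 FPKM in Bach2-cKO libraries (log2 fold change -0.89, adjusted p = 0.00871 by limma). Sesn3 was at 154, 111 and 147 FPKM in WT and at 76.6, 76.7 and 77.7 FPKM in Bach2-cKO libraries (log2 fold change -0.81, adjusted p = 0.00445 by limma). Sesn2 had the opposite sign in the same libraries. Lamtor2, part of the lysosomal anchor of mTORC1, fell by 0.25 on the log2 scale, and it missed the threshold whichever library was left out (adjusted p up to 0.0993).

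**Figure D4:**
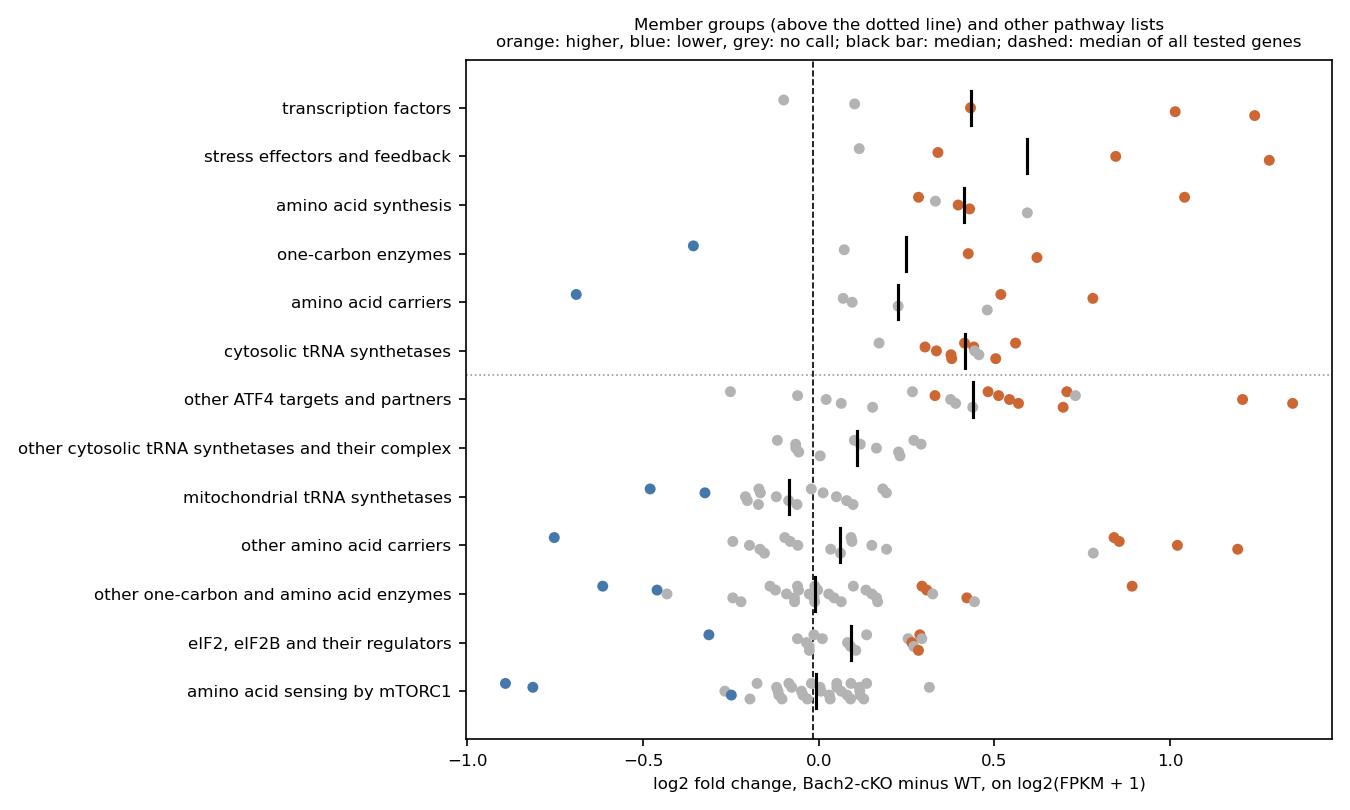
Log2 fold change (Bach2-cKO minus WT, on log2(FPKM + 1)) of each tested gene in the 6 roles above the dotted line and the 7 further lists below it, with calls in orange (higher) and blue (lower), medians as black bars and the median of all tested genes dashed. The further ATF4 targets have a median of 0.44, and the mitochondrial synthetases one of -0.086.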

How the data were processed

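The authors deposited FPKM per gene and library. Per the submitters' processing notes, HISAT2 2.0.5, featureCounts 1.5.0-p3 and the build mm9 were used. The annotation and strand setting were not given in the sources used here. Gene positions in the deposited table equal GENCODE M21 (GRCm38) for 45128 of 49326 identifiers, so positions are given as GRCm38. Because FPKM is relative to a library's total, abundant genes that change shift the others.

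The test used limma 3.58.1 in R 4.3.3 (lmFit, then eBayes with trend, two-sided) on log2(FPKM + 1), with a pseudocount of 1. It covered the 13766 genes that reached 1 FPKM in 3 or more libraries, with Benjamini-Hochberg adjustment over them and a threshold of 0.05. This understates changes of low genes. The design named edgeR's test for counts, which FPKM do not allow. The FPKM steps gave whole reads, within 0.001 reads, for 100% of the 28530 genes above 0. For 11267 genes this held at the annotated length, and for 17263 at another length, found by a search. For genes with few reads such a search can succeed whatever the true length. Limma-voom on these reads called 1165 genes higher and 1347 lower. Replicates differed by more than sampling noise. The test was checked on simulated reads with the same spread for every gene. Changes were planted only in genes with many reads, so recovery in low genes was not checked. It recovered 10 of 50 planted changes of 1.25-fold, 46 of 50 of 1.5-fold, and all 50 of 2-fold and of 4-fold. A gene that did not pass may therefore still have changed by a small amount. There were 10 false calls among 13766 genes. Figures used Matplotlib 3.10.9 under Python 3.11.15. Promoters came from RefSeq.

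The 38 genes and the lists were chosen with earlier results of these data known. Named genes were all 38, up to 4 called genes with the smallest p in each further list (the best 1 if none passed), and defining markers; some of these are not reported here. Alternatives were median-ratio scaling, limma-voom, other filters, a pseudocount of 0.1, a replicate block, B cell and cell cycle covariates, a threshold of 0.01 and leaving out each library.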

Additional observations from a re-analysis of the deposited data

How the results depend on the processing

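Under median-ratio scaling, limma-voom, a pseudocount of 0.1 or a mean of at least 5 FPKM, every called member that was tested kept its call. That last filter left out Slc7a11, so that 1 member was lower and 0 carriers. The same 12 members (Atf5, Cebpb, Chac1, Asns, Phgdh, Shmt2, Mthfd2, Slc7a5, Aars, Gars, Nars and Eprs) were called in every fit run other than that with the B cell covariate, where 0 members were called in any role and 91 genes were higher and 100 lower over all genes. With no filter 12 members were higher and 0 lower, with 501 genes higher and 681 lower over all, and at an adjusted p under 0.01 again 12 and 0, with 341 and 454. Both settings left 1 stress effector, 2 synthesis enzymes, 1 carrier and 4 synthetases higher, and 0 one-carbon enzymes and 0 carriers lower. With the cell cycle covariate 435 genes were higher and 520 lower, with 1 member and 0 carriers lower. Leaving out 1 library gave 492 to 1224 genes higher, 560 to 1375 lower, 12 to 21 members higher and 0 to 1 lower. By role these fits gave 2 to 3 transcription factors, 1 to 3 stress effectors, 2 to 5 synthesis enzymes, 2 one-carbon enzymes, 1 to 2 carriers and 4 to 8 synthetases higher, with 0 one-carbon enzymes and 0 to 1 carriers lower. Signs turned for members with no call: leaving out 1 library moved the log2 fold change of Ddit3 between -0.25 and 0.093 and that of Slc38a2 between -0.047 and 0.14. With the cell cycle covariate Ddit3 was 0.16 and Mthfd1l -0.061. With the B cell covariate Cebpg was -0.026, Slc38a2 -0.040, Slc1a5 -0.015 and Sars -0.045. The causes were not tested. Of the 21 called genes named from the further lists, 12 passed whichever library was left out. The tested members had 169 reads or more in each library.

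With the replicate number as a block, 16 members were higher and 1 lower, with 625 genes higher and 657 lower over all, 1 stress effector and 1 carrier higher and 0 one-carbon enzymes lower. Same-numbered libraries did not deviate together (r = -0.053, 0.0058 and -0.21 across genes, which are not independent replicates). With 3 libraries per group these values cannot settle whether same-numbered libraries were prepared together, and the labels give only the number. The block kept 15 of 24 calls and added 2.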
